A study of Mus musculus with 15 samples.

Results

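The cytosolic ribosomal protein genes are the genes whose products, together with ribosomal RNA, build the 40S and 60S subunits of the ribosome that translates nuclear mRNAs. They were chosen by name alone: a symbol of Rpl or Rps with a number and at most a short suffix, or Rpsa, Rplp0, Rplp1 or Rplp2, leaving out rows named as pseudogenes. This gave 85 of the 26264 genes in the count table, 33 named for the 40S subunit and 52 for the 60S subunit. Of these, 81 had enough counts to be tested among 13189 genes. Rpl3l, Rpl10l, Rpl39l and Rpl32l were listed near 0 and were not tested.

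RNA was sequenced from mouse liver in 15 libraries, 3 in each of 5 groups. The study is on mice given a high-fat diet to model MASLD, the fatty liver disease of metabolic dysfunction. One treatment was resmetirom, which activates the beta form of the thyroid hormone receptor, and the other was Gc337, an antisense oligonucleotide that knocks down the kinase STK25. The labels name the groups SD-NS, HFD-NS, HFD-337, HFD-338 and HFD-Res, so that the last 4 share the label HFD. HFD-NS is the reference for HFD-337, HFD-338 and HFD-Res. What SD and NS stand for, the number in HFD-338, the strain, age, dose and time are not given in the sources used here, nor is anything beyond the separate labels that says the libraries of a group came from separate animals. P-values therefore measure the spread between these libraries, which may be technical.

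A ribosome carries a single copy of most of its proteins, and an excess of free ribosomal protein is degraded. The mRNAs of nearly all ribosomal proteins start with a run of pyrimidines, the 5′ terminal oligopyrimidine (TOP) motif, through which the kinase complex mTORC1 and the RNA-binding protein LARP1 control their translation and stability. In liver, ribosomal protein mRNAs are among the most abundant housekeeping mRNAs, and hepatocytes spend much of their energy on secreted plasma proteins. The genes are short and highly expressed, and many have processed pseudogenes elsewhere in the genome.

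The start of the transcript carries the TOP motif, so the first bases are shown for genes that stand at different places in the results below: Rpl38, with the largest rise in HFD-337, Rpl28, higher in HFD-337 than in HFD-338, Rps10, higher in both than in HFD-Res, Rpl15, lower in HFD-337 than in HFD-338, Rps6, and Rplp2, which passed the test in neither group. Each line runs from 10 bases before to 20 bases from the annotated start, with the pyrimidine run in capitals.
Rpl38, chr11:114668570-114668599, plus strand: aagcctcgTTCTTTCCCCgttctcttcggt
Rpl28, chr7:4792955-4792984, plus strand: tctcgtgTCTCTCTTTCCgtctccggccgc
Rps10, chr17:27635225-27635254, minus strand: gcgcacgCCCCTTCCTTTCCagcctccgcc
Rpl15, chr14:18270967-18270996, minus strand: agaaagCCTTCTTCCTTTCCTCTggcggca
Rps6, chr4:86857348-86857377, minus strand: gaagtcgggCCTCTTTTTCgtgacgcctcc
Rplp2, chr7:141447641-141447670, plus strand: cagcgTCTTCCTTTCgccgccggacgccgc
These sequences and their positions are from RefSeq promoter windows of build GRCm38.p6, whereas the counts use mm39. The run was 10 bases long in Rpl38, Rps6 and Rplp2, 11 in Rpl28, 13 in Rps10 and 17 in Rpl15. Other members had no such run, as given below.

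A promoter window, from 250 bases before to 50 after the start, was matched by symbol for 64 of the 85 genes. A run of at least 8 C or T on the transcript's strand, touching the stretch from 10 bases before to 30 after the start, was found in 64.1% of them, against 22.4% of other tested genes and 22.2% of all promoters. Of members lower in HFD-337 than in HFD-338, Rps4x, Rpl5, Rpl41, Rpl10, Rpl6 and Rps3a1 lacked this run. Rpl4, Rpl10a, Rpl15, Rpl22l1 and Rpl35, also lower, had it. Rpl3, Rpl29 and Rps27a, also lower, had no matched window. Members higher in HFD-337 than in HFD-338 were mixed too, with Rps28 and Rpl27 among those that lacked the run and Rps26 and Rpl28 among those that had it. CCGGAAG, the core bound by ETS factors such as GABPA, was found on either strand in 40.6% of the matched genes, 19.1% of other tested genes and 9.93% of all promoters. CCATNTT, the core of the YY1 motif, was found in 32.8%, 17.8% and 18.2% of these. TATAAA was found in 12.5%, 9.36% and 15.7%. Both strands were searched for these motifs, matches of different motifs may overlap, and a match is a description of the window only. The ETS core of Rpl38 lies just upstream of its start, shown in capitals in the 100 bases at chr11:114668480-114668579 on the plus strand (GRCm38.p6).
Rpl38: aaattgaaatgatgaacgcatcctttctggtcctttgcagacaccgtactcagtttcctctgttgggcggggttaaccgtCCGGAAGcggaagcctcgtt

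Total counts per library ran from 3873903 to 9797743. Stk25, the targeted gene, was at 43.7 to 53.3 TMM-scaled CPM (reads relative to the effective library size) in SD-NS and HFD-NS and 37.7 to 46.9 CPM in HFD-Res, against 20.5 to 22.0 CPM in HFD-338 and 14.6 to 19.1 CPM in HFD-337, without overlap. All 10 hepatocyte markers on the list were detected, with summed levels of 92669 to 155549 CPM over the libraries. A gene was called where its adjusted p, Benjamini-Hochberg over all genes tested with edgeR's quasi-likelihood test, was under 0.05. Values after ± are SDs over 3 libraries for levels and standard errors for log2 changes.

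Summed over the 85 genes, ribosomal protein mRNA stood at 13729, 14353 and 14186 CPM in the SD-NS libraries and at 10394, 10677 and 11413 CPM in HFD-NS. It stood at 15001, 15379 and 16765 CPM in HFD-338 and at 17431, 17893 and 19452 CPM in HFD-337. In HFD-Res it stood at 10683, 11393 and 12586 CPM. HFD-NS and HFD-Res overlap and lie below the 3 other groups, which do not overlap with each other on this scale. The group means were 14089 ± 323 CPM in SD-NS, 10828 ± 526 in HFD-NS, 15715 ± 929 in HFD-338, 18259 ± 1059 in HFD-337 and 11554 ± 962 in HFD-Res. With HFD-NS as 100%, these were 130% in SD-NS, 145% in HFD-338, 169% in HFD-337 and 107% in HFD-Res. The subunits moved in parallel, with 144% for 40S and 146% for 60S genes in HFD-338, and 168% and 169% in HFD-337. Summed TPM, which divides each count by exon length and then by the library's total of such values, gave 119% in SD-NS, 160% in HFD-338, 159% in HFD-337 and 106% in HFD-Res. On that scale HFD-337 (38030 to 43849 TPM) and HFD-338 (38302 to 43584 TPM) overlap almost fully. In bulk tissue, fewer cells of a type and less RNA per cell cannot be told apart.

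**Figure D1:**
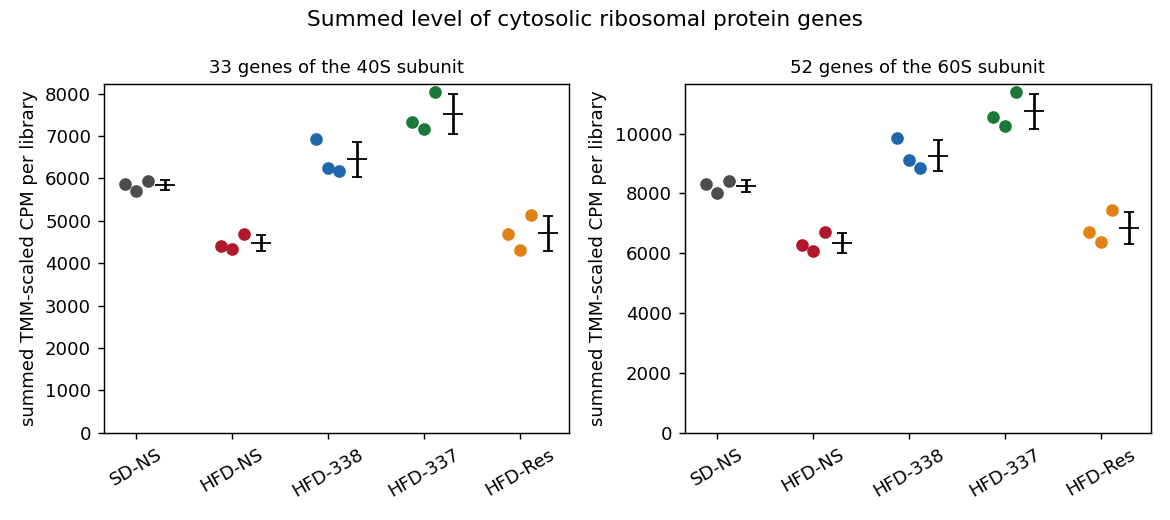
Summed TMM-scaled CPM per library (points, 3 per group, in the order of the replicate labels) of the genes named for the 40S subunit (left) and the 60S subunit (right), with the mean and SD beside each group. All HFD-NS libraries lie below all SD-NS, HFD-338 and HFD-337 libraries in both panels, and HFD-337 is highest on this scale but not in TPM.

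Per length, the most abundant transcript over all libraries was Rpl17, at a mean of 884 TPM, followed by Rplp1 (836 TPM), Rpl13a (832 TPM) and Rpl26 (824 TPM). Rpl26 sits at the exit of the peptide tunnel, and Rplp1 is one of the acidic proteins of the stalk that recruits elongation factors. The lowest listed transcripts were the paralogs Rpl10l (0.0156 TPM), Rpl39l (0.0667 TPM), Rpl3l (0.15 TPM) and Rpl32l (0.25 TPM). Rpl10l and Rpl39l are known from testis and Rpl3l from striated muscle. Rps4l followed at 15.9 TPM. All other members lay above it, Rpl7l1 next at 41.5 TPM and Rps15a at 46.2 TPM.

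HFD-NS against SD-NS asks what the diet label does. In HFD-NS, 61 of the 81 tested ribosomal protein genes were lower and 0 higher, with a median log2 change of -0.38, where 16.1% of all genes tested were called lower and 28.1% in either direction. The fall was shared by 24 of 33 40S genes and 37 of 48 60S genes and was modest for each gene. Among the largest falls were those of Rpl10a, a protein of the L1 stalk, Rpl5, which carries 5S rRNA into the ribosome, Rps27a, made as a fusion with ubiquitin, Rpl12, at the base of the P stalk, and Rpsa, the 40S protein also known as the laminin receptor.

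Rpl10a was at 63.8, 64.4 and 69.5 CPM in SD-NS and 35.5, 39.9 and 42.1 CPM in HFD-NS. The groups do not overlap, and the log2 change was -0.75 ± 0.105 (adjusted p = 4.4e-05). Rpl5 was at 209, 215 and 222 CPM in SD-NS and 123, 132 and 137 CPM in HFD-NS, a change of -0.72 ± 0.0965 (adjusted p = 2.91e-05). Of its exons, 47.7% overlap those of Dipk1a, and since reads were counted for every gene they overlap and without strand, its value holds reads of both. Rps27a, with 11.1% overlap with Clhc1, changed by -0.71 ± 0.113 and Rpl12 by -0.69 ± 0.109. Rpsa was at 225, 240 and 258 CPM in SD-NS and 150, 152 and 154 CPM in HFD-NS, again without overlap, with a change of -0.66 ± 0.0992 (adjusted p = 8.18e-05).

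The fall was uneven within complexes. Of the 5S ribonucleoprotein, the assembly intermediate that can bind the p53 ligase Mdm2, Rpl5 fell while Rpl11, its partner, had a log2 value of -0.13 ± 0.0958 (adjusted p = 0.328). Of 4 stalk genes 3 fell, among them Rplp0, the stalk's scaffold, by -0.47 ± 0.0961, and Rplp2, by -0.39 ± 0.117 (not called in TPM, or when SD-NS replicate 8 or replicate 13 of HFD-NS was left out). Rplp1 did not pass the test (-0.23 ± 0.101, adjusted p = 0.0916), but was called lower with scaling factors from genes under 10 kb (-0.27) and with limma-voom (-0.26). Rps27l, a paralog of Rps27 known as a p53 target, had a positive value (0.20 ± 0.0912, adjusted p = 0.11). It was called higher with DESeq2 (0.21), in a fit of 2 groups (0.24) and in TPM (0.31). Monocyte-derived macrophage markers were higher in HFD-NS (5 of 8 called, summed 23.7 to 52.5 CPM against 7.78 to 10.4 CPM in SD-NS, none at 0 in every library of a group), and their part in the fall of ribosomal protein genes was not tested. Without HFD-NS replicate 13 the number of ribosomal protein genes called lower was 40, and in recomputed TPM 36 were called lower and 1 higher.

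HFD-337 carries the number of Gc337 in its label, but Stk25 mRNA was lower than in HFD-NS in HFD-338 as well. In HFD-337 against HFD-NS, 66 of 81 ribosomal protein genes rose and 2 fell, with a median log2 change of 0.78. Of all genes tested, 24.4% were called higher and 22.8% lower. With scaling factors taken from genes under 10 kb, 54 of these 66 were still higher and 12 members were lower (median 0.42). A rise of at least 2-fold was fitted for 26 of them. The largest rises were those of Rpl38, a small 60S protein known from a mouse mutant with skeletal patterning defects, Rps12, in the beak of the 40S subunit, Rpl13a, Rplp1, Rps28 and Rpl26. The 2 that fell were Rps4x, a 40S protein encoded on the X chromosome, and Rpl7l1, a paralog of Rpl7 that acts in 60S assembly.

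Rpl38 (chromosome 11, span from 114559406 in mm39) was at 87.3, 98.0 and 98.6 CPM in HFD-NS and at 248, 290 and 314 CPM in HFD-337, with 81.0 to 113 CPM in HFD-Res, 110 to 128 CPM in SD-NS and 164 to 179 CPM in HFD-338. The HFD-337 libraries stand above all others, and the log2 change against HFD-NS was 1.58 ± 0.118 (adjusted p = 1.38e-08). Rps12 was at 104, 113 and 119 CPM in HFD-NS and at 295, 348 and 359 CPM in HFD-337, a change of 1.58 ± 0.118 (adjusted p = 1.55e-08). Rpl13a, which also takes part in interferon-gamma-dependent translational silencing, was at 257 to 298 CPM in HFD-NS and 690, 788 and 795 CPM in HFD-337, a change of 1.46 ± 0.112. Rplp1 went from 124 to 149 CPM in HFD-NS to 336, 383 and 415 CPM in HFD-337, a change of 1.46 ± 0.101 (adjusted p = 6.41e-09). Rps28 changed by 1.43 ± 0.111 and Rpl26 by 1.37 ± 0.0922. None of these groups overlap.

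Against these stands Rps4x, at 156, 179 and 185 CPM in HFD-NS and 110, 140 and 149 CPM in HFD-337, a change of -0.38 ± 0.108 (adjusted p = 0.00711). Rpl7l1 was at 54.2 to 60.8 CPM in HFD-NS and 40.4, 44.0 and 53.7 CPM in HFD-337 (-0.30 ± 0.105, adjusted p = 0.0243), and its call was lost without HFD-NS replicate 12, without HFD-337 replicate 23 or without HFD-337 replicate 27. The fitted values of Rpl5 (0.00 ± 0.0966), Rpl3 (0.05 ± 0.0951), which lies near the peptidyl transferase centre, and Rpl4 (-0.15 ± 0.103), which lines the peptide tunnel, did not pass the test, but with scaling to short genes all 3 were called lower (-0.35, -0.31 and -0.50). Rpl11 rose by 0.89 ± 0.0957, so that the partners of the 5S ribonucleoprotein, Rpl5 and Rpl11, gave different values in the same libraries. Rps6, the substrate of S6 kinase, rose by 0.32 ± 0.111 (adjusted p = 0.0261) with overlap between the groups (a call lost in TPM and without HFD-NS replicate 12 or 13 or HFD-337 replicate 26 or 27), 119 to 132 CPM in HFD-NS against 124, 159 and 182 CPM in HFD-337, and with scaling to short genes the value was -0.039 and not called.

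By position on the ribosome, 14 of 14 genes of the 40S head rose in HFD-337 (median 0.98; 12 with scaling to short genes and 13 in TPM), as did 8 of 8 genes at the peptide exit tunnel (median 0.86; 6 with scaling to short genes). Of the stalk, 3 of 4 rose (2 with scaling to short genes). Rplp0 rose by 0.41 ± 0.0959, a call lost with scaling to short genes (0.050), and Rplp2 did not pass the test (0.16 ± 0.117, adjusted p = 0.284). Rps27a, counted among the 14 genes of the 40S head, rose by 0.28 ± 0.113 with overlapping groups (adjusted p = 0.0497). Its call was lost with scaling to short genes (-0.078) and without HFD-337 replicate 27 (0.090). The call was also lost with RLE size factors, DESeq2, limma-voom, no low-count filter, a fit of 2 groups, TPM and without HFD-NS replicate 12 or 13. The count of 14 of 14 therefore holds only where this call does. Rpsa rose by 0.78 ± 0.099, and Rps27l rose by 0.60 ± 0.0909. Sinusoidal endothelial markers were lower in the same libraries (8 of 8 called, summed 64.8 to 80.0 CPM against 203 to 256 CPM in HFD-NS, none at 0). Of stellate cell markers 3 of 8 were called lower (summed 120 to 261 CPM against 307 to 406 CPM). Of Kupffer cell markers 2 of 7 were called lower (summed 44.3 to 101 CPM against 139 to 177 CPM). Of all genes tested 22.8% were called lower, and the Kupffer cell count is near that share. The part of these cell types in the rise was not tested.

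In HFD-338 against HFD-NS, 72 of 81 ribosomal protein genes rose and 0 fell, with a median log2 change of 0.51, where 18.9% of all genes tested were called higher and 17.9% lower. The rises were more alike than in HFD-337, and 3 genes, Rpl22l1, Rpl12 and Rpl10a, rose at least 2-fold. Rpl22l1 is a paralog that can take the place of Rpl22 in the 60S subunit and also acts in splicing.

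Rpl22l1 was at 25.2, 28.7 and 33.4 CPM in HFD-NS and at 75.6, 83.1 and 87.3 CPM in HFD-338, a change of 1.49 ± 0.114 (adjusted p = 3.89e-08). It was at 57.5, 66.0 and 71.3 CPM in HFD-337, between these groups and without overlap with either. Rpl22 itself was at 164 to 169 CPM in HFD-NS and 217, 224 and 230 CPM in HFD-338 (0.42 ± 0.0872), and at 284, 292 and 314 CPM in HFD-337. In the direct comparison, Rpl22l1 was lower in HFD-337 than in HFD-338 (-0.34 ± 0.111, adjusted p = 0.0131, a call lost without HFD-337 replicate 26) and Rpl22 higher (0.41 ± 0.0871), a difference that was 0.00 with scaling to short genes. Rpl12 was at 123 to 138 CPM in HFD-NS and 254, 275 and 298 CPM in HFD-338, a change of 1.11 ± 0.109 (adjusted p = 6.55e-07). Rpl10a, the gene that fell most with the diet, was at 74.6, 79.0 and 84.1 CPM in HFD-338, a change of 1.02 ± 0.103. Rps12 (0.97 ± 0.117), Rps15a (0.93 ± 0.106) and Rps27a (0.90 ± 0.112) followed, all without overlap.

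Rps4x, which fell in HFD-337, was at 258, 287 and 301 CPM in HFD-338 against 156 to 185 CPM in HFD-NS, a rise of 0.70 ± 0.107 (adjusted p = 6.09e-05). Of the genes named above as not called in HFD-337, Rpl5 rose by 0.59 ± 0.0959, Rpl3 by 0.59 ± 0.0944 and Rpl4 by 0.37 ± 0.103. Rpl11 rose by 0.35 ± 0.0951, Rpsa by 0.54 ± 0.0986, Rps6 by 0.42 ± 0.111 and Rplp0 by 0.57 ± 0.0957. Those that did not pass the test were Rpl7a, Rpl7l1, Rpl8, Rpl36, Rplp2, Rps2, Rps4l, Rps26 and Rps27l. Rps26, which contacts mRNA upstream of the start codon, was at 127, 131 and 144 CPM in HFD-NS and 115, 127 and 130 CPM in HFD-338 (-0.12 ± 0.0979, adjusted p = 0.379). In these libraries 9 of 10 markers of dividing cells were called higher (summed 93.6 to 132 CPM against 32.7 to 34.3 CPM in HFD-NS), with 8 of 8 monocyte-derived macrophage markers (83.6 to 126 CPM against 23.7 to 52.5 CPM). The same held for all 5 bile duct markers tested of 8 (67.0 to 81.6 CPM against at most 16.1 CPM, with Cldn4 among those at 0 in HFD-NS), and 4 of 8 stellate cell markers were called higher (753 to 1282 CPM against 307 to 406 CPM, none at 0), while 7 of 8 sinusoidal endothelial markers were lower. Their part in the rise of ribosomal protein genes was not tested.

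In HFD-Res against HFD-NS, 1 of 81 ribosomal protein genes was called, where 6.22% of all genes tested were called higher and 6.74% lower. The median log2 change was 0.10. Leaving out each library in turn gave 0 to 2 called members. The values of Rplp2 (0.30 ± 0.117), Rpsa (0.25 ± 0.0991) and Rplp0 (0.24 ± 0.0961) did not pass the test, although their libraries do not overlap between the groups.

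**Figure D2:**
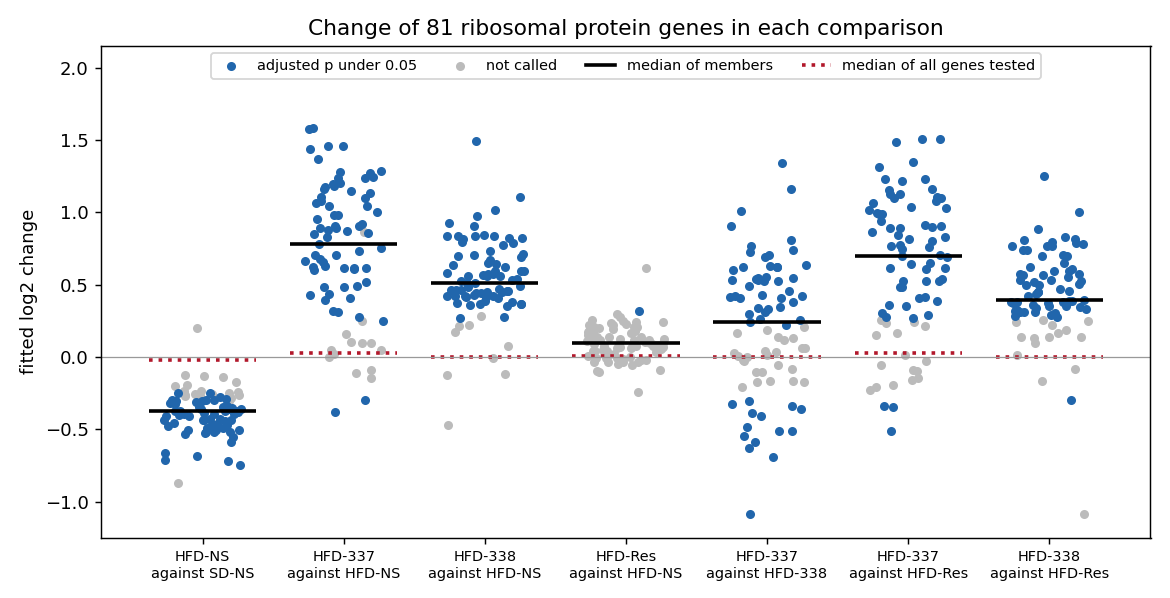
Fitted log2 change (vertical axis) of each of the 81 tested ribosomal protein genes (points, spread sideways for visibility) in 7 comparisons, blue where called and grey where not, with the median of these genes (black line) and of all genes tested (red dots). Medians of the members lie at -0.38 in HFD-NS against SD-NS, 0.78 in HFD-337 and 0.51 in HFD-338 against HFD-NS, and the positive median of HFD-337 against HFD-338 turns negative with scaling to short genes or in TPM.

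The direct comparison of HFD-337 with HFD-338 split the ribosomal protein genes. Of 81, 42 were higher in HFD-337 and 14 lower, with a median of 0.24, where 28.8% of all genes tested were called higher, 29.6% lower and 58.4% in either direction, but with scaling factors taken from genes under 10 kb 11 were higher and 38 lower (median -0.16), and in recomputed TPM 21 were higher and 31 lower (median -0.03). Of the 42 called higher, 11 were still higher with scaling to short genes and 21 in TPM, whereas all 14 called lower were lower with both. Which group holds more of this mRNA, and how many genes are lower in HFD-337, thus depend on the scaling. Scaling to short genes moved the median of all genes from 0.00 to -0.40 in this comparison and from 0.03 to -0.32 in HFD-337 against HFD-NS. Among genes spanning under 10 kb, 39 of 77 tested members were higher in HFD-337 than in HFD-338 (50.6%, median 0.22). Of other genes of that span, 1601 of 3468 were higher (46.2%, median 0.41). The share of members called higher was thus near that of other short genes, and their median was lower.

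The genes named at either end, except Rps4l, kept their sign and their call under these scalings. Rps4x was at 110, 140 and 149 CPM in HFD-337 and 258, 287 and 301 CPM in HFD-338, a log2 difference of -1.08 ± 0.109 (adjusted p = 2.35e-07), and -1.49 and -1.37 with the other scalings. Rpl41, the smallest ribosomal protein, was at 111, 140 and 150 CPM in HFD-337 and 191, 220 and 237 CPM in HFD-338 (-0.69 ± 0.109). Rps27a (-0.63 ± 0.112), Rpl5 (-0.59 ± 0.0965), Rpl3 (-0.55 ± 0.0949) and Rpl4 (-0.51 ± 0.103) were also lower in HFD-337. At the other end, Rps26 was at 264, 276 and 290 CPM in HFD-337 and 115, 127 and 130 CPM in HFD-338, a difference of 1.16 ± 0.0987 (adjusted p = 4.23e-08), and 0.75 and 0.88 with the other scalings. Rps28 (1.01 ± 0.109), Rpl28 (0.91 ± 0.104), Rpl27 (0.81 ± 0.11) and Rplp1 (0.77 ± 0.0996) were higher in HFD-337. All of these groups are separate. Rps4l, a relative of Rps4x, was at 7.48, 11.8 and 12.7 CPM in HFD-337 and 2.62, 3.22 and 7.07 CPM in HFD-338 (1.34 ± 0.461, adjusted p = 0.0236), and its call was lost with either other scaling. It was also lost without HFD-338 replicate 17 or 18 or HFD-337 replicate 26 or 27, each left out alone.

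Against HFD-Res, 62 of 81 ribosomal protein genes were higher in HFD-337 and 3 lower (median 0.70), where 24.3% of all genes tested were called higher, 23.3% lower and 47.6% in either direction, with 48 higher and 13 lower (median 0.37) with scaling to short genes. In HFD-338 65 were higher than in HFD-Res and 1 lower (median 0.40), where 22.2% were called higher, 20.9% lower and 43.1% in either direction. The largest differences in HFD-337 were those of Rplp1 (1.51 ± 0.102), Rpl38 (1.51 ± 0.119) and Rps12 (1.48 ± 0.119), and those that were lower included Rps4x (-0.51 ± 0.109) and Rpl15 (-0.35 ± 0.0905). In HFD-338 they were Rpl22l1 (1.25 ± 0.116) and Rpl12 (1.00 ± 0.11), with Rps10 at 0.83 ± 0.106. Rps26 was lower in HFD-338 (-0.30 ± 0.0986, adjusted p = 0.0211), a call lost without HFD-338 replicate 18 or HFD-Res replicate 34 and with either other scaling.

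Ribosomal protein genes are short, and in HFD-337 long genes as a class were lower, so the change is set beside gene span, from the first to the last annotated base. Spans of the 82 members with all exons on 1 chromosome ran from 0.591 to 11.8 kb, the longest being Rps15a, and 81 were under 10 kb. The median over tested members was 3.14 kb, against 21.7 kb over all genes tested. In HFD-337 against HFD-NS, 62 of 77 tested members under 10 kb were higher (80.5%, median 0.73), against 1355 of 3468 other genes of that span (39.1%, median 0.33). Other genes under 2 kb had a median of 0.53 and those of 2 to 5 kb 0.39, where members had 1.00 and 0.71. Genes of at least 200 kb had a median of -0.57. Other short genes thus moved in the same direction as the ribosomal protein genes in this group, by less.

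In HFD-338 against HFD-NS, 68 of the 77 members under 10 kb were higher (88.3%, median 0.51), against 491 of 3468 other short genes (14.2%, median -0.09). Members and other genes of the same span had medians of opposite sign in each class under 10 kb, 0.45 and -0.20 under 2 kb, 0.51 and -0.11 at 2 to 5 kb, and 0.52 and -0.06 at 5 to 10 kb. With the diet, 57 of 77 members under 10 kb were lower (74.0%) against 328 of 3468 other short genes (9.46%), whose median was 0.08.

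**Figure D3:**
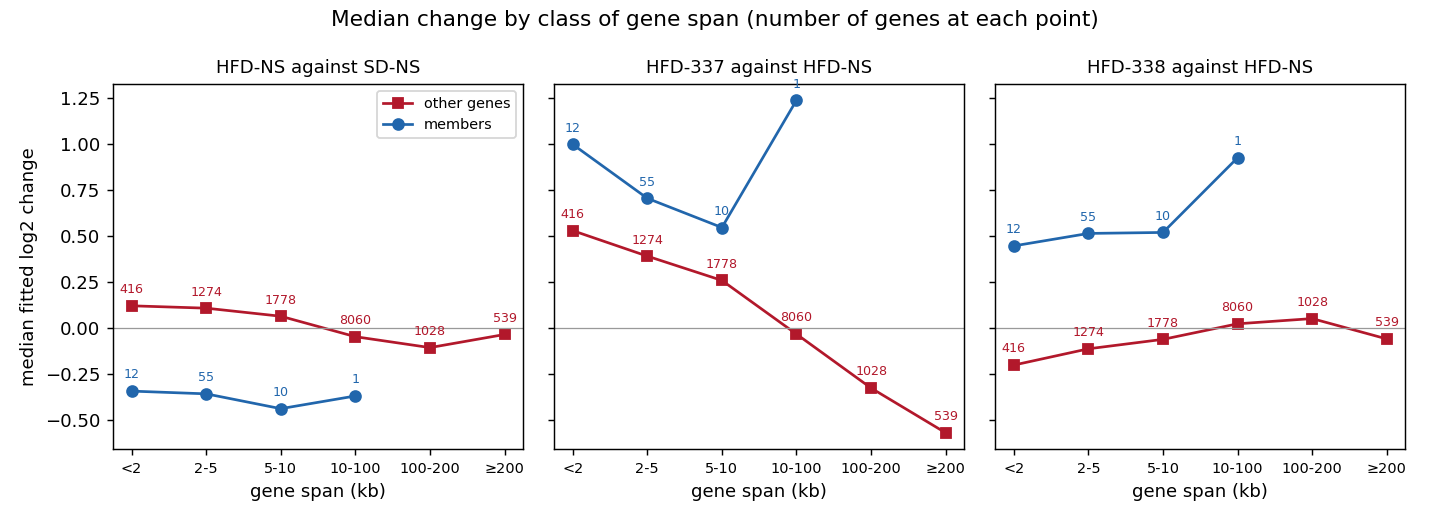
Median fitted log2 change (vertical axis) by class of gene span in kb (horizontal axis) for ribosomal protein genes (blue circles) and all other tested genes (red squares) in 3 comparisons, with the number of genes at each point. Other short genes rise towards 0.53 on the left in HFD-337 but lie at -0.20 in HFD-338, while ribosomal protein genes lie above them in both.

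Among the members themselves, the change varied with coding length to different degrees in the comparisons. Across 80 tested members with a coding length in the annotation, Spearman's rho between coding length and log2 change was -0.50 in HFD-337 against HFD-NS and -0.18 in HFD-338 against HFD-NS. It was -0.30 in HFD-NS against SD-NS, 0.28 in HFD-Res against HFD-NS, -0.42 in HFD-337 against HFD-338, and against HFD-Res -0.55 in HFD-337 and -0.36 in HFD-338. In HFD-337 against HFD-NS it was -0.18 for span across 78 members and -0.15 across 3468 other genes under 10 kb. For exon length it was -0.30 across 81 members and -0.20 across those other genes. For coding length it was -0.07 across 2922 other genes under 10 kb. These are correlations across genes that share the same libraries and are not independent replicates. In 4 sets of 20 genes ordered by coding length, from 138 to 366, 369 to 456, 468 to 624 and 633 to 1257 bases, the median change in HFD-337 was 1.06, 0.92, 0.65 and 0.31, and in HFD-338 0.58, 0.54, 0.47 and 0.47. The short end holds Rpl38 and Rps28, and the long end Rpl3, Rpl4, Rpl5 and Rps4x. Rpl41, with the shortest coding sequence, lies apart from this order, with a value of 0.02 in HFD-337.

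**Figure D4:**
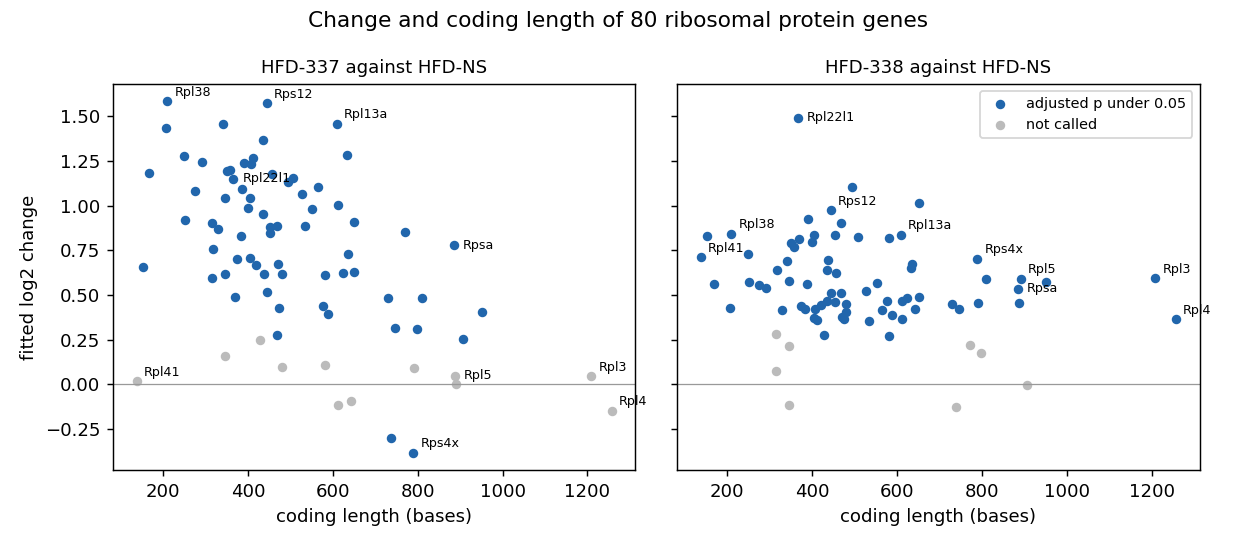
Fitted log2 change (vertical axis) against coding length in bases (horizontal axis) of 80 ribosomal protein genes in HFD-337 (left) and HFD-338 (right) against HFD-NS, blue where called and grey where not. In HFD-337 the points fall from a median of 1.06 in the 20 shortest to 0.31 in the 20 longest, and in HFD-338 from 0.58 to 0.47.

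Over the 15 libraries most members followed the rest. The Pearson correlation of a member's log2 CPM with the summed CPM of the other members had a median of 0.91, exceeded 0.8 for 57 of 81 and was below 0 for 5, namely Rpl7l1 (-0.57), Rps4x (-0.12), Rpl15 (-0.12), Rpl4 (-0.03) and Rpl10. Among 12783 other genes, those nearest to the summed level included Fau (r = 0.97), Rps27rt (0.97), Ssr4 (0.95) and Snrnp70 (0.94). Fau is a ribosomal protein gene that the naming rule leaves out, since its symbol does not start with Rpl or Rps. All of the exon length of Rps27rt (100%) overlaps Rps27, so those values share reads. Ssr4 is a subunit of the translocon-associated complex and Snrnp70 of the U1 spliceosomal particle.

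Fau was at 86.6, 88.5 and 95.8 CPM in HFD-NS, 117, 119 and 133 CPM in HFD-338 and 141, 152 and 156 CPM in HFD-337. Of 4 ribosomal protein genes outside the rule, among them Fau, Rack1 and Rpl36al, 4 rose in HFD-337, 3 rose in HFD-338 and 3 fell with the diet, although the fall of Fau was not called in TPM, or when replicate 6 or 8 of SD-NS or replicate 12 or 13 of HFD-NS was left out, nor without HFD-NS replicate 16, with RLE size factors or with DESeq2. Rack1, a scaffold on the 40S head, rose by 0.62 ± 0.0986 in HFD-337 and by 0.57 ± 0.0983 in HFD-338 and fell with the diet (-0.50 ± 0.0988).

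Counts for other parts of the translation machinery stand beside the shares over all genes tested, of which 24.4% rose and 22.8% fell in HFD-337, 18.9% rose and 17.9% fell in HFD-338, and 16.1% fell with the diet. Of 11 noncoding host genes of snoRNAs, several of which carry TOP motifs, 10 rose in HFD-337 (median 1.20, and 0.84 with scaling to short genes) and 2 in HFD-338 (median 0.23). Snhg20 (1.79 ± 0.198) and Snhg7 (1.60 ± 0.233) rose most in HFD-337. Of 17 other TOP mRNAs, 8 rose and 5 fell in HFD-337, 4 rose and 1 fell in HFD-338, and 11 fell with the diet, but with scaling to short genes 1 rose and 7 fell in HFD-337. Eef2, the elongation factor that moves the ribosome along the mRNA, fell in HFD-337 (-0.61 ± 0.102), whereas Eif3k, a subunit of initiation factor eIF3, rose (0.68 ± 0.111). Of 35 initiation and elongation factors, 6 rose and 17 fell in HFD-337, with Eif4g1, the scaffold of the cap-binding complex, at -0.90 ± 0.106, while 2 rose and 3 fell in HFD-338 (6 and 2 in TPM). With the diet 17 of these fell and 0 rose, among them Eif5 (-0.69 ± 0.126).

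Of 80 ribosome biogenesis factors, which process rRNA and assemble the subunits, 24 rose and 6 fell in HFD-337 (5 and 22 with scaling to short genes), 0 rose and 5 fell in HFD-338 (5 and 3 in TPM), and 21 fell with the diet. Resmetirom's group gave 10 rises and 1 fall in this list, with Rrp12 (1.06 ± 0.28) and Ltv1 (0.70 ± 0.137) the largest, the former not called in TPM or without HFD-NS replicate 16 or HFD-Res replicate 34. Of 78 mitochondrial ribosomal protein genes, 39 rose and 5 fell in HFD-337 (median 0.26, but 16 and 18 with a median of -0.10 with scaling to short genes). In HFD-338 2 rose and 20 fell (median -0.15, and -0.01 in TPM), so the median was below 0 where that of the cytosolic genes was 0.51. Mrpl52 rose by 1.48 ± 0.134 in HFD-337 and Mrps2 fell by 0.80 ± 0.115 on the log2 scale in HFD-338. Of 37 proteasome subunit genes tested, 14 rose and 9 fell in HFD-337 (5 and 17 with scaling to short genes), 4 rose and 7 fell in HFD-338 (9 and 2 of 38 in TPM), and 23 fell and 3 rose with the diet. Of 19 p53 targets, 12 rose and 1 fell in HFD-338, 5 rose and 6 fell in HFD-337, and 4 rose and 1 fell with the diet.

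**Figure D5:**
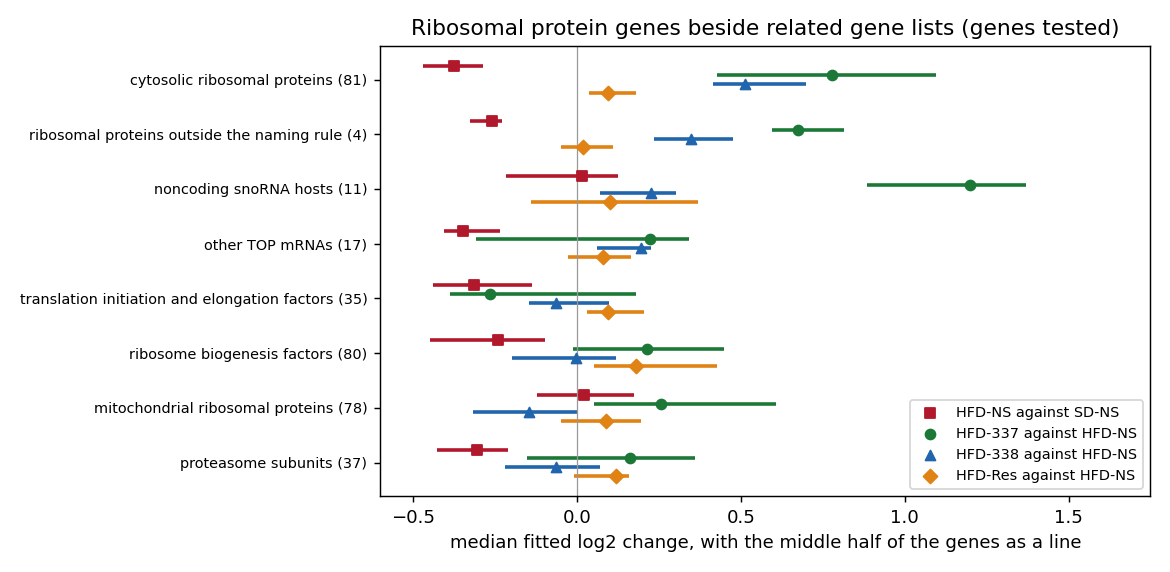
Median fitted log2 change (symbols, horizontal axis) of the cytosolic ribosomal protein genes and 7 related lists, with lines from the lower to the upper quartile of their genes and the number tested in brackets, in 4 comparisons. The cytosolic ribosomal protein genes lie at 0.51 in HFD-338 where the mitochondrial ones lie at -0.15, and the snoRNA hosts reach 1.20 in HFD-337, where scaling to short genes turns the sign of the medians of other TOP mRNAs, biogenesis factors, mitochondrial ribosomal proteins and proteasome subunits.

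Of 18 regulators in the mTORC1, LARP1 and MYC list, 5 rose and 6 fell in HFD-337 (1 and 8 with scaling to short genes), 1 rose and 4 fell in HFD-338, and 3 fell with the diet. The shares that rose in HFD-337 and fell with the diet are near those over all genes, as is the share of p53 targets and of biogenesis factors that rose in HFD-337. Larp1 was at 131, 146 and 157 CPM in HFD-NS, 178, 223 and 225 CPM in HFD-337 and 112, 122 and 122 CPM in HFD-338. It rose in HFD-337 (0.52 ± 0.113, adjusted p = 0.000887) and in HFD-Res (0.37 ± 0.113, adjusted p = 0.0389), calls lost with scaling to short genes (0.17 and 0.35), and in HFD-Res also in TPM and without HFD-NS replicate 13 or 16 or HFD-Res replicate 30 or 34. Its value in HFD-338 was -0.29 ± 0.113 (adjusted p = 0.053). Mtor fell in HFD-337 (-0.52 ± 0.11) and did not pass the test in HFD-338 (-0.20 ± 0.107). Eif4ebp2, a repressor of cap-dependent initiation, fell in HFD-337 (-2.19 ± 0.174), and Rps6kb2, an S6 kinase, rose (1.04 ± 0.146). Rptor, the subunit that defines mTORC1, fell in HFD-338 (-0.73 ± 0.112). Myc ranged from 3.57 to 37.0 CPM in HFD-337 and from 3.04 to 5.59 CPM in HFD-NS, with overlap, and did not pass the test (adjusted p = 0.0563), but did with DESeq2 (2.02) and without HFD-337 replicate 26 (2.51).

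Since every read was counted for each gene it overlaps, 7 members share more than 5% of their exon length with another gene: Rps27, Rpl5, Rpl31, Rps25, Rps21, Rps27a and Rpl32. Any overlap was found for 10 members, and the exons of Rpl12, Rpl28 and Rps27 are listed on more than 1 chromosome, so their counts may hold reads of more than 1 locus. The tested members outside both of these sets, chosen as an alternative after the data had been seen, gave 52 of 69 lower with the diet, 55 higher and 2 lower in HFD-337, and 60 higher and 0 lower in HFD-338. Reads that match a gene and a processed pseudogene equally well could not be placed, so levels of members with close copies are uncertain. The 10 rows named as ribosomal protein pseudogenes held 0.0644% as many counts as the members.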

How the data were processed

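Per the labels' protocols, TRIzol-extracted total RNA was enriched for poly(A) RNA. Tools listed in the submitters' processing notes are featureCounts 2.0.1, STAR 2.7.10b, Trim Galore 0.6.10 and, with no stated role, Bowtie 1.3.1, on build mm39. The deposited counts, per the file headers, sum exonic reads per gene, unstranded, and a read counts for every gene it overlaps. The authors also deposited TPM. Of its columns, 12 equal TPM recomputed from counts and exon lengths within 0.001, and 3 per-sample columns that could not be tied to a library were not used.

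Members and gene lists were chosen with earlier results of these data known. The 13189 genes passing filterByExpr were fitted with edgeR 4.0.16 (R 4.3.3), robust quasi-likelihood, TMM scaling, all 15 libraries in 1 fit. Spans come from the deposited annotation columns, coding lengths from GENCODE vM21. Overlaps used bedtools 2.31.1. Members named per comparison are the 6 largest called rises and falls without overlap between groups, with a fixed set named whatever the result. Related genes named are up to 2 called per list and direction. In simulated counts for HFD-337 against HFD-NS over 13189 genes, 66% of genes changed 2-fold and 26% of those changed 1.5-fold were recovered, with 1.08% of calls false. Alternatives were RLE size factors, TMM from genes under 10 kb or without members, DESeq2 1.42.0, limma-voom (limma 3.58.1), no filter on low counts, a fit of 2 groups, recomputed TPM (limma on log2 of TPM plus 1) and leaving out each library. Results for some genes are not reported here.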

Additional observations from a re-analysis of the deposited data

Results flagged for a closer look

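Between HFD-337 and HFD-338, 56 of the 81 tested ribosomal protein genes differed in level by the direct test, where 58.4% of all genes tested did. Between HFD-337 and HFD-Res 65 differed (47.6% of all genes), and between HFD-338 and HFD-Res 66 (43.1%). Rps4x stood out because it was called in opposite directions against HFD-NS, lower in HFD-337 and higher in HFD-338, and its direct log2 difference was -1.08. These comparisons share libraries with each other.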

How the results depend on the processing

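The median change in HFD-337 against HFD-338 turned from 0.24 to -0.16 with TMM factors from genes under 10 kb and to -0.032 in recomputed TPM. The other 6 medians kept their direction in every alternative. In HFD-NS against SD-NS, recomputed TPM called 37 genes in place of 61. In HFD-Res against HFD-NS, 0 genes were called with no low-count filter, and 2 with DESeq2, in place of 1. The cause was not tested. Leaving out each library in turn gave 40 to 56 called genes in HFD-NS against SD-NS, 63 to 68 in HFD-337, 69 to 71 in HFD-338 and 0 to 2 in HFD-Res against HFD-NS. It gave 48 to 55 in HFD-337 against HFD-338, and against HFD-Res 60 to 66 in HFD-337 and 50 to 67 in HFD-338. Of 2058 values of 147 single-gene results under alternatives, 1932 kept direction and call, 101 lost the call, 21 gained one and 4 reversed. The 4, all in HFD-337 against HFD-NS with TMM factors from genes under 10 kb, were Rpl5 (-0.353), Rps6 (-0.039), Rps27a (-0.078) and Rpl3 (-0.310). No paired analysis was possible because the groups share no replicate numbers. With 3 libraries a group, changes near 1.5-fold were often missed in simulated counts, where 200 genes drawn from all 13189 were changed. In the data far more genes were called in HFD-337 against HFD-NS (24.4% higher and 22.8% lower), so the simulated recovery may not carry over. Recovery of the ribosomal protein genes was not measured separately. In the data, 72 of these 81 genes were called in HFD-338 against HFD-NS, at a median log2 change of 0.51.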
